A study of Mus musculus with 188 samples.

Results

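Transcripts of 8 regulatory genes of the NRF2 system were followed across brain slice cultures exposed to heme or hemoglobin (Hb). The genes were chosen by name, as the rows whose Ensembl identifiers map to Nfe2l2, Nfe2l1, Keap1, Bach1, Sqstm1, Maff, Mafg and Mafk, and they are 8 of 25711 identifiers in the count files. All 8 passed the filter on low counts in both sets of libraries, so no gene was lost before testing. The series holds 188 bulk mRNA libraries from organotypic coronal brain slice cultures (BSC), slices of living brain kept at an air-liquid interface, prepared from wild-type C57BL/6J mice of both sexes aged 6 to 8 weeks. Of these, 167 have a condition that the labels give without conflict and 21 do not.

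Every culture was wild type, and exposure began on culture day 7. In batch 1, 60 libraries taken at 24 h form 6 groups of 10: untreated control, heme-albumin at 12.5, 50, 200 and 400 μM (heme on its low-affinity plasma carrier), and hemeHpx at 200 μM. HemeHpx is heme bound to hemopexin (Hpx), its high-affinity plasma scavenger. The titles of these 10 libraries name haptoglobin, whereas the treatment labels and library names give Hpx, and the latter were followed. In batches 2 and 3, the labelled libraries at 24 h and 48 h cover control (10 and 9 libraries), Hb 200 μM (10 and 10), Hb 400 μM (10 and 10), the complex of Hb with its scavenger haptoglobin (HbHp) at 200 μM (8 and 8) and 400 μM (4 and 5), and haptoglobin alone (Hp) at 400 μM (12 and 11). The proteins were of human origin, so exposures crossed species. A replicate is a library. Nothing in the labels states that libraries came from separate animals, and p-values therefore measure the spread between libraries only.

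Library names in batches 2 and 3 carry the code E1 or E2, which the labels do not define. The codes are read here as 2 experiments, and every statement on experiments rests on that reading. All HbHp libraries belong to E2 and to batch 3, and all Hp libraries to batch 3 but to both experiments. Only 4 of the 19 control libraries belong to batch 3, and 5 belong to E2. Fold changes in this set were therefore fitted with terms for batch and experiment. They differ somewhat from ratios of group means, and values within 1 experiment stand beside the results that rest on this layout.

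NRF2, the product of Nfe2l2, is a transcription factor that is made continuously and degraded continuously. KEAP1 presents it to a CUL3 ubiquitin ligase, and electrophiles or oxidants that modify KEAP1 let NRF2 accumulate, pair with a small MAF protein and bind antioxidant response elements near genes for glutathione synthesis, thioredoxin reduction, NADPH supply and heme degradation. BACH1 pairs with the same small MAF proteins and represses overlapping elements, among them those of the heme oxygenase gene Hmox1, until heme binds it and causes its export and degradation. SQSTM1 (p62), a selective autophagy receptor, binds KEAP1 and draws it into autophagy, and its gene is itself an NRF2 target. Much of this control acts on protein, which mRNA libraries do not measure.

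Promoter sequence is shown because some of these regulators moved together and because several are described as NRF2 targets. RefSeq promoter windows (GRCm38.p6) were searched over the 250 bases before each start for the core antioxidant response element TGACNNNGC on both strands. Of 8 genes, 4 held 1 match each, in 4 of 14 windows. Over all genes with a window, 3112 of 27025 held it (11.5%), and 3338 of 32851 windows (10.2%). The 4 matches are printed 5′ to 3′ on the strand of the gene with flanking bases in lower case and the element in capitals.
Maff: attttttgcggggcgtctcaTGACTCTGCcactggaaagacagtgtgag
Mafg: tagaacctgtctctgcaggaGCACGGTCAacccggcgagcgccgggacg
Nfe2l2: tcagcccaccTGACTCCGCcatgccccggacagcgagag
Mafk: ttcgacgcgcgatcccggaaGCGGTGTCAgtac
The Maff element reads on the sense strand 112 bases before the start (chr15:79346489-79346537, plus strand). The Mafg element reads on the antisense strand 222 bases before the start (chr11:120633741-120633789, minus strand). In Nfe2l2 the sense element lies 240 bases before the start (chr2:75704875-75704913, minus strand). In Mafk the antisense element lies 13 bases before the start (chr5:139791503-139791535, plus strand). No window of Sqstm1, Keap1, Bach1 or Nfe2l1 held these letters. A match is a run of letters and not evidence of binding, and elements outside the windows were not searched.

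Sequencing depth, as the total count of a library, lay between 11038484 and 44199060 in batch 1, between 32626873 and 54174784 in batch 2 and between 15587938 and 38839614 in batch 3. Levels are given as CPM, read counts relative to the size of the library, scaled by trimmed mean of M-values within each set. Levels of batch 1 and of batches 2 and 3 were scaled apart and were not tested against each other. Neuronal markers were low in the cultures, with a summed level of 8 genes between 235 and 523 CPM in batch 1 controls against 8180 to 12200 CPM for 8 astrocyte markers. All markers listed for neurons, astrocytes, oligodendrocytes, microglia, border macrophages and endothelial cells passed the filter on low counts in both sets. One library of HbHp 200 μM at 48 h, replicate 1, stood apart with the lowest Nfe2l1, Keap1, Bach1 and Mafg of its group. Counting by strand is not given in the sources used here, so reads where Sqstm1 overlaps Mrnip, Keap1 overlaps Gm16754 or Mafk overlaps Tmem184a on the opposite strand cannot be told apart. Mafg overlaps Sirt7 and Nfe2l2 overlaps Gm24996 on the same strand.

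Per kilobase of exon, Sqstm1 was the most abundant of the 8 in control slices. In batch 1 controls its level was 110 ± 16.8 CPM per kilobase (SD, n = 10), followed by Nfe2l1 at 54.6 ± 6.54, Nfe2l2 at 45.5 ± 6.32, Mafg at 18.3 ± 2.72, Keap1 at 12.2 ± 1.86, Bach1 at 9.85 ± 1.18, Mafk at 5.37 ± 1.03 and Maff at 2.41 ± 0.596. The SD ranges of Nfe2l1 and Nfe2l2 overlapped, as did those of Keap1 and Bach1, and those of the other neighbours did not. The 24 h controls of batches 2 and 3 had the same order, from 140 ± 34.8 for Sqstm1 to 2.61 ± 0.619 for Maff. Over the 60 libraries of batch 1 the highest Maff level was 7.67 times the lowest and the highest Sqstm1 level 4.43 times the lowest. The same ratio was 1.65 for Keap1, the smallest of the 8.

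Under heme-albumin at 400 μM all 8 transcripts were higher than in control slices, with the 3 largest log2 fold changes in Sqstm1 and the small MAF genes Maff and Mafg. The 4 doses and hemeHpx share 1 set of controls. The number called by edgeR's quasi-likelihood test, at an adjusted p under 0.05 over 15554 genes, was 0 at 12.5 μM, 2 at 50 μM, 5 at 200 μM and 8 at 400 μM, every one higher. The shares of all tested genes called at these doses were 0.045%, 0.463%, 13.6% and 29%. The median log2 fold change of the 8 was 0.12, 0.20, 0.24 and 0.38, while the median over all genes stayed within 0.02 of 0. At 12.5 μM, 2 of the 8 had an unadjusted p under 0.05 and DESeq2 called 0.

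The median Sqstm1 level was higher at each higher dose. Its level in control libraries was 271 CPM at the lowest, 368 at the median and 470 at the highest. The corresponding values were 411, 470 and 515 CPM at 12.5 μM and 434, 539 and 693 CPM at 50 μM. At 200 μM they reached 475, 757 and 861 CPM and at 400 μM 686, 917 and 1200 CPM. Every library at 200 and 400 μM lay above every control library, and 9 of 10 did so at 50 μM. The log2 fold change against control was 0.33 (SE 0.092, adjusted p = 0.416) at 12.5 μM, 0.60 (SE 0.092, adjusted p = 1.73e-05) at 50 μM, 0.95 (SE 0.092, adjusted p = 1.37e-11) at 200 μM and 1.34 (SE 0.093, adjusted p = 1.17e-17) at 400 μM. The last corresponds to 2.54-fold.

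Maff, the small MAF gene with the lowest level, had a log2 fold change close to that of Sqstm1 at the highest dose. Control libraries spanned 3.64 to 8.77 CPM around a median of 6.46. At 200 μM heme-albumin the libraries spanned 6.62 to 14.6 CPM (median 9.59), and at 400 μM 8.29 to 27.9 CPM (median 13.8). Of 10 libraries at 400 μM, 9 exceeded every control, and the next highest library after that with 27.9 CPM had 21.2 CPM. The log2 fold change was 0.67 (SE 0.16, adjusted p = 0.00207) at 200 μM and 1.26 (SE 0.16, adjusted p = 5.4e-09) at 400 μM. At 50 μM it was 0.38 (adjusted p = 0.35).

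Mafg, which encodes a small MAF partner of both NRF2 and BACH1, changed by less than Sqstm1 or Maff. It ranged from 81.5 to 120 CPM in control (median 105) and reached 147 CPM at 50 μM (median 132). The range was 104 to 159 CPM at 200 μM (median 139) and 139 to 174 CPM at 400 μM (median 159). All 10 libraries at 400 μM lay above all controls. The log2 fold change was 0.34 (adjusted p = 0.00414), 0.41 (adjusted p = 2.69e-05) and 0.60 (adjusted p = 7.01e-10) at these 3 doses. Control libraries were uneven, with 81.5 to 99 CPM of Mafg in replicates 12, 14, 16, 18 and 19 and 111 to 120 CPM in the others. The same replicates were low in Keap1 (48.1 to 52.3 against 62.1 to 68.3 CPM) and Nfe2l1 (244 to 287 against 318 to 342 CPM). The part of this split in the fold changes was not tested. Mafk, the third small MAF gene, passed the test at 400 μM, with a log2 fold change of 0.34 (SE 0.12, adjusted p = 0.0235). Its libraries there spanned 17.2 to 35.1 CPM against 14.5 to 27.5 CPM in control, and 4 of 10 exceeded every control. The Mafk call was lost after correction for GC content and length.

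The transcripts of the transcription factors and of KEAP1 moved within narrow limits. Nfe2l2 ranged from 130 to 203 CPM in control (median 171) and from 161 to 275 CPM at 400 μM (median 195), a log2 fold change of 0.27 (SE 0.090, adjusted p = 0.0187). At 200 μM its 95% interval ran from −0.01 to 0.34. Nfe2l1, which encodes NRF1, the relative of NRF2 that is anchored in the endoplasmic reticulum and drives proteasome genes, rose by a log2 fold change of 0.23 (adjusted p = 0.00914) at 200 μM and 0.41 (adjusted p = 9.68e-07) at 400 μM. It lay above all controls in 7 and 9 of 10 libraries. Keap1 rose by 0.25 (adjusted p = 0.0219) and 0.26 (adjusted p = 0.00661) on the log2 scale at these doses, and its call at 400 μM was lost after correction for GC content and length. Bach1 rose at 400 μM only, by 0.23 (SE 0.073, adjusted p = 0.0124), from 52.5 to 73.4 CPM in control to 57.8 to 91.4 CPM. That Bach1 passed at 400 μM and not at 200 μM does not show a difference between these doses, and the direct test between them gave 0.12 (adjusted p = 0.556).

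**Figure D1:**
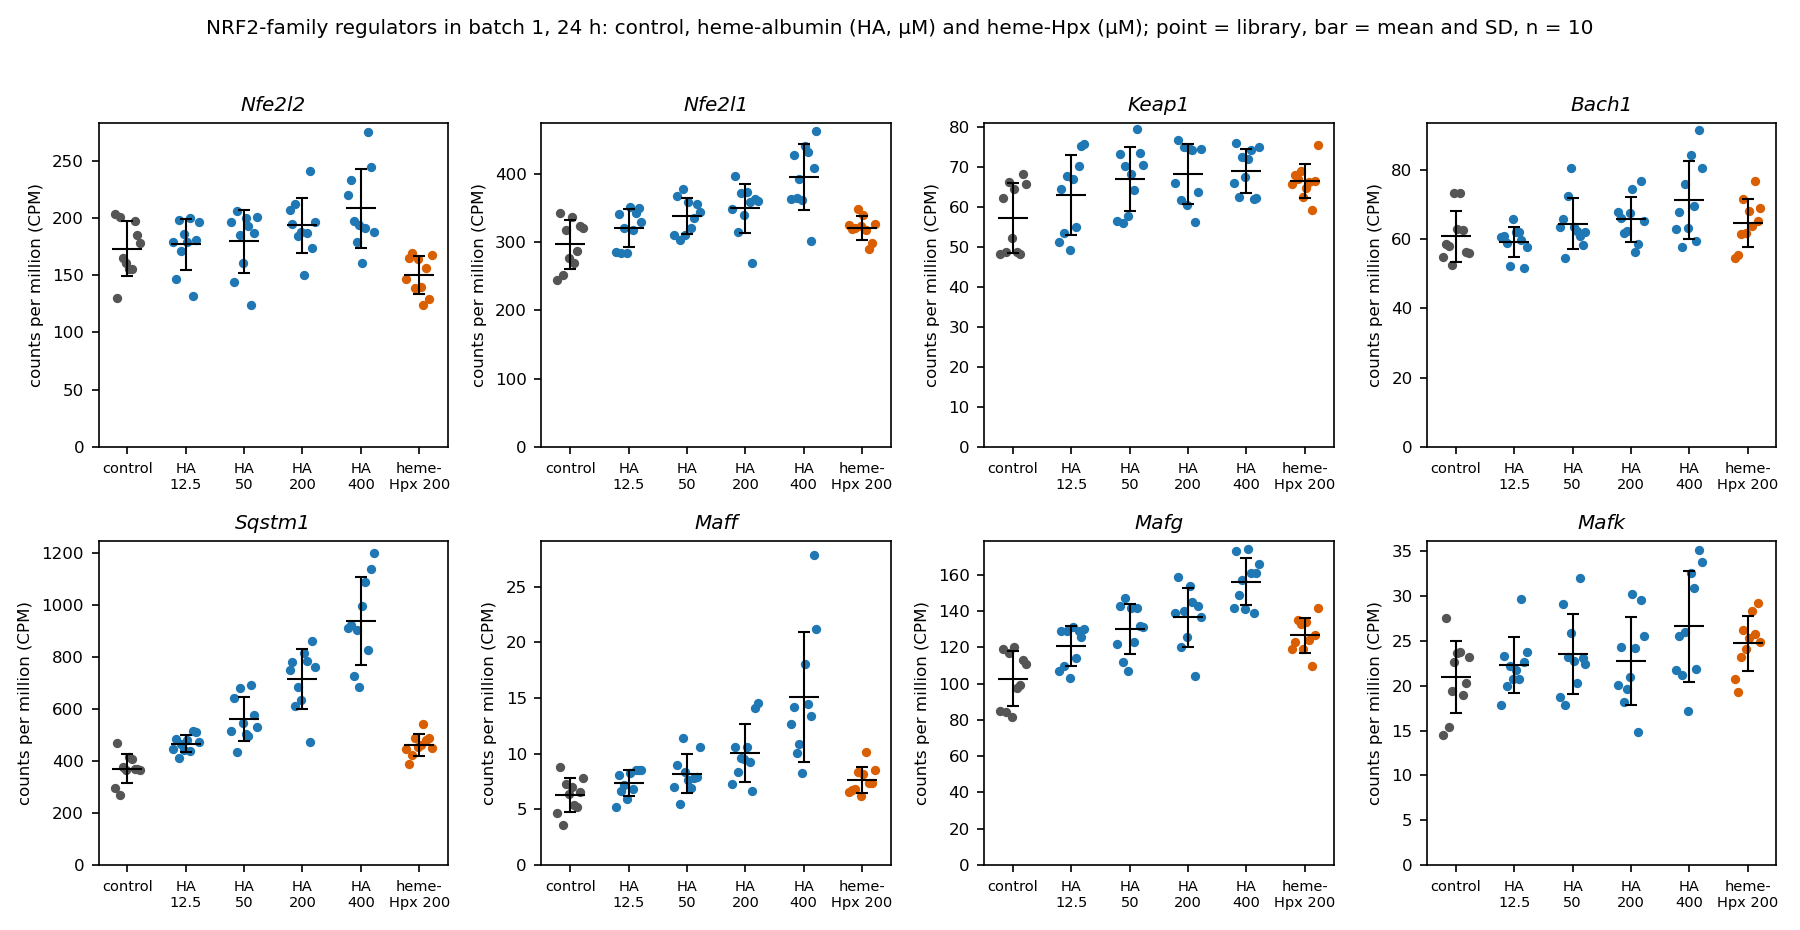
Levels of the 8 regulators in batch 1 at 24 h, in CPM on linear axes from 0. Each point is a library and bars give the mean and SD of 10 libraries. Sqstm1 climbs from a mean of 370 CPM in control to 941 CPM at 400 μM heme-albumin, whereas hemeHpx at 200 μM has a mean of 462 CPM.

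Direct tests of neighbouring doses called few of the genes. Between 12.5 and 50 μM, 0 of 8 passed by edgeR, with 1 at an unadjusted p under 0.05 and 0 by DESeq2, and the share over all genes was 0.0%. Between 50 and 200 μM, 1 passed (all genes 0.797%): Sqstm1, by a log2 fold change of 0.35 (SE 0.091, adjusted p = 0.0457). It was lost with no filter on low counts. Between 200 and 400 μM, 2 passed (all genes 1.27%): Sqstm1 by 0.39 (adjusted p = 0.0135) and Maff by 0.59 (SE 0.15, adjusted p = 0.0329).

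Most transcripts listed downstream of NRF2 and BACH1 were higher from 50 μM on. Of 30 listed NRF2 target genes, 4 were higher at 12.5 μM, 20 at 50 μM, 27 at 200 μM and 28 at 400 μM, with median log2 fold changes of 0.26, 0.43, 0.58 and 0.70. A single target was lower at 400 μM, Ugdh, by −0.29 (adjusted p = 2.06e-06). Srxn1, which encodes sulfiredoxin, rose from 76.6 ± 10.6 CPM in control to 260 ± 46.6 CPM at 400 μM (SD, n = 10), a log2 fold change of 1.76 (adjusted p = 1.13e-22). Gclm, the modifier subunit of glutamate-cysteine ligase, rose from 119 ± 13.1 to 254 ± 19.3 CPM, and Hmox1 from 1350 ± 551 to 4580 ± 1280 CPM. Of 6 genes listed as repressed by BACH1 (Hmox1, Fth1, Ftl1, Slc40a1, Slc48a1 and Gclm), 1, 5, 6 and 6 were higher at the 4 doses. All of these genes except Slc40a1 are also among the 30 NRF2 targets, so the counts of the lists are not separate evidence. Both lists were chosen with earlier results of these data known.

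Some markers of cell types also passed at 200 and 400 μM, where 13.6% and 29% of all genes were called. Of 8 microglial markers, 7 were lower at 200 μM and 4 at 400 μM, with median log2 fold changes of −0.84 and −0.70. Their summed level ran from 545 to 2370 CPM in control, 393 to 1010 CPM at 200 μM and 392 to 1320 CPM at 400 μM. Astrocyte markers were lower for 4 and 5 of 8 genes. At 400 μM, 2 of 6 border macrophage and 1 of 7 endothelial markers were lower, and 1 of 8 neuronal and 1 of 8 oligodendrocyte markers were higher. Over all 15554 genes, 2226 were lower and 2284 higher at that dose, and the counts of 1 lay near these shares. In bulk tissue, fewer cells of a type and less RNA per cell cannot be told apart. The part of these shifts in the regulator levels was not tested. At 50 μM, where 0.463% of all genes were called, 0 of 8 microglial and 0 of 8 astrocyte markers passed by edgeR. There 1 and 2 had an unadjusted p under 0.05, DESeq2 called 0, and the median log2 fold changes were −0.23 and −0.09.

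HemeHpx at 200 μM left Nfe2l2, Sqstm1 and Maff lower than heme-albumin at the same heme dose. Against control, 2 of 8 genes were higher (all genes 8.2%): Sqstm1 by a log2 fold change of 0.32 (SE 0.092, adjusted p = 0.0374) and Mafg by 0.30 (SE 0.070, adjusted p = 0.0185). The Sqstm1 call was lost after correction for GC content and length, and also with no filter on low counts. Against heme-albumin 200 μM, 3 were lower and none higher (all genes 25.9%). Sqstm1 spanned 388 to 541 CPM with a median of 458 under hemeHpx against 475 to 861 CPM under heme-albumin, and 6 of 10 libraries lay below every heme-albumin library. The difference was −0.63 on the log2 scale (SE 0.092, adjusted p = 1.36e-06). For Maff it was −0.40 (SE 0.15, adjusted p = 0.047), with 6.21 to 10.2 CPM against 6.62 to 14.6 CPM. This call was lost with no filter on low counts and with a stricter one.

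Nfe2l2 had its lowest median of batch 1 under hemeHpx. Its libraries ran from 124 to 169 CPM with a median of 152, against 150 to 241 CPM under heme-albumin 200 μM, and none of the 10 exceeded the heme-albumin median. The difference was −0.36 (SE 0.090, adjusted p = 0.00284). Against control it was −0.20 (95% interval −0.38 to −0.03, adjusted p = 0.115), which did not pass. The other 5 genes had differences from heme-albumin between −0.12 and 0.12 that did not pass. For Bach1 the interval was −0.16 to 0.12, for Keap1 −0.19 to 0.11 and for Mafg −0.25 to 0.03. After correction for GC content and length, some of these other 5 genes were called as well.

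The target lists, which share most of the BACH1-repressed genes, gave counts in the same direction. Of 30 NRF2 targets, 13 were higher under hemeHpx than in control and 24 were lower than under heme-albumin 200 μM, with a median difference of −0.36. Of the 6 BACH1-repressed genes, 3 were higher than control and 4 were lower than under heme-albumin. Hmox1 reached 2330 ± 618 CPM under hemeHpx against 3370 ± 704 CPM under heme-albumin (SD, n = 10), a difference of −0.54 (adjusted p = 0.0263). Microglial markers were higher under hemeHpx than under heme-albumin for 7 of 8 genes (median 0.95), with sums of 696 to 1880 against 393 to 1010 CPM, and astrocyte markers for 4 of 8. Against control, 0 of 8 microglial markers passed by edgeR (1 unadjusted, 1 by DESeq2, median −0.01). Their part in these differences was not tested.

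Free Hb changed few of the 8 transcripts. At 200 μM, 0 of 8 passed at 24 h (3 at an unadjusted p under 0.05, 0 by DESeq2, all genes 0.0971%) and 0 of 8 at 48 h (5 unadjusted, 0 by DESeq2, all genes 0.31%). At 400 μM, 2 passed at 24 h (all genes 0.522%) and 1 at 48 h (all genes 0.601%). Mafg was higher at both times, by log2 fold changes of 0.27 (SE 0.059, adjusted p = 0.00457) and 0.25 (SE 0.061, adjusted p = 0.0158). Its libraries spanned 109 to 148 CPM at 24 h and 109 to 135 CPM at 48 h against 91.7 to 117 and 90.2 to 112 CPM in controls, and 8 of 10 exceeded every control at each time. Within E1 alone Mafg gave 0.23 and 0.25, both called, and within E2 alone 0.32 and 0.23, neither called. Both calls were also lost within batch 3 alone (0.23, adjusted p = 0.552, and 0.30, adjusted p = 0.957) and in the fit with a replicate block made from the library names.

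Sqstm1 passed under Hb 400 μM at 24 h alone, narrowly, by 0.35 (SE 0.089, adjusted p = 0.043). It ran from 445 to 865 CPM around a median of 610 against 341 to 698 CPM around 425 in controls, and 1 of 10 libraries exceeded every control. Within E1 alone the value was 0.40 (adjusted p = 0.0678) and within E2 alone 0.20 (adjusted p = 0.534). At 48 h it was 0.29 (95% interval 0.11 to 0.47, adjusted p = 0.194). Between 200 and 400 μM Hb, 0 of 8 genes passed at 24 h or at 48 h, with 0 at an unadjusted p under 0.05, 0 by DESeq2 and 0.0% of all genes at each time. NRF2 targets were higher for 8 of 30 at 200 μM and 22 of 30 at 400 μM at 24 h, and for 20 and 24 at 48 h.

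HbHp was followed by higher levels of 2 to 5 of the 8 regulators, read against the same controls as Hb and Hp. At 24 h, 2 of 8 genes were higher at 200 μM (all genes 1.93%) and 4 at 400 μM (all genes 5.15%). At 48 h, 4 were higher at 200 μM (all genes 11.9%) and 5 at 400 μM (all genes 11.9%). None was lower. Within E2 alone, the experiment that holds all HbHp libraries, the counts were 0 and 2 at 200 μM and 2 and 3 at 400 μM, at 24 h and 48 h. Within batch 3 alone they were 1 and 1 at 200 μM and 2 and 4 at 400 μM. The shares of all genes above belong to the fit of all libraries, and those of these subsets are not given here. Nfe2l2, Nfe2l1 and Keap1 did not pass in any of these comparisons, with log2 fold changes from −0.02 to 0.16 in the fit of all libraries. Within E2 alone Nfe2l2 gave 0.12 and 0.22 at 200 μM and 0.15 and 0.26 at 400 μM, at 24 h and 48 h. Within batch 3 alone it gave 0.19 and 0.28 at 200 μM and 0.23 and 0.32 at 400 μM. Nfe2l1 and Keap1 lay between −0.09 and 0.07 within E2 alone.

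Sqstm1 separated HbHp from control libraries completely. At 200 μM it spanned 735 to 831 CPM (median 782) at 24 h and 738 to 923 CPM (median 854) at 48 h. The 4 libraries at 400 μM and 24 h had 1040, 921, 858 and 760 CPM, and the 5 at 48 h had 975, 849, 945, 976 and 899 CPM. The highest control had 698 CPM at 24 h and 530 CPM at 48 h. The log2 fold change was 0.55 (SE 0.11, adjusted p = 0.00105) and 0.90 (SE 0.11, adjusted p = 4.19e-09) for 200 μM at the 2 times, and 0.74 (SE 0.13, adjusted p = 2.83e-05) and 1.03 (SE 0.12, adjusted p = 3.7e-10) for 400 μM. Within E2 alone these were 0.33 (adjusted p = 0.0782), 0.76 (adjusted p = 5.63e-06), 0.52 (adjusted p = 0.00305) and 0.89 (adjusted p = 5.16e-07), so the call at 200 μM and 24 h was lost.

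Maff rose most clearly at 400 μM. Its 4 libraries at 24 h had 16.8, 11.4, 10.5 and 7.46 CPM against 5.22 to 11 CPM in control, so that 2 exceeded every control. The 5 libraries at 48 h had 8.90, 10.3, 12.7, 11 and 10.6 CPM, all above the highest control of 8.34 CPM. The log2 fold changes were 0.92 (SE 0.16, adjusted p = 3.5e-05) and 0.95 (SE 0.16, adjusted p = 4.81e-06), and 0.78 and 1.21 within E2 alone, both called. At 200 μM Maff passed at 48 h, by 0.57 (SE 0.14, adjusted p = 0.00432). This call held within E2 alone (0.83, adjusted p = 0.0252) and was lost within batch 3 alone (0.63, adjusted p = 0.14).

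Bach1 passed under HbHp in 3 of the 4 comparisons with control. The libraries at 400 μM had 73, 63.6, 64.5 and 69.9 CPM at 24 h and 66, 74.4, 69.7, 65.2 and 69.2 CPM at 48 h. All lay above the control maxima of 63.4 and 56.8 CPM. The log2 fold change was 0.29 (SE 0.072, adjusted p = 0.00665) at 24 h and 0.43 (SE 0.069, adjusted p = 3.05e-06) at 48 h. Within E2 alone these were 0.25 (adjusted p = 0.214) and 0.43 (adjusted p = 0.0114), and the 24 h call was also lost without replicate 1. At 200 μM and 48 h it was 0.26 (adjusted p = 0.00267), with 7 of 8 libraries above every control and replicate 1 below every control at 42 CPM. This call was lost within E2 alone (0.27, adjusted p = 0.119) and within batch 3 alone (0.24, adjusted p = 0.188), and in the fit limited to the control, Hb and HbHp 200 μM libraries.

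Mafg passed in all 4 comparisons, by 0.30 (adjusted p = 0.0131) and 0.26 (adjusted p = 0.014) for 200 μM at 24 h and 48 h and by 0.42 (adjusted p = 0.000657) and 0.44 (adjusted p = 6.73e-05) for 400 μM. Its libraries at 400 μM had 147, 150, 131 and 127 CPM at 24 h and 142, 123, 149, 149 and 140 CPM at 48 h, all above the control maxima of 117 and 112 CPM. None of the 4 calls held within E2 alone, where 5 control libraries remain. Mafk passed at 400 μM and 48 h, by 0.36 (SE 0.10, adjusted p = 0.0129), with 27.7, 20.8, 27.9, 28.1 and 25 CPM against 15.4 to 23.4 CPM. Within E2 alone its value was 0.16 (adjusted p = 0.534), and the call was lost without replicate 3 or replicate 4.

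**Figure D2:**
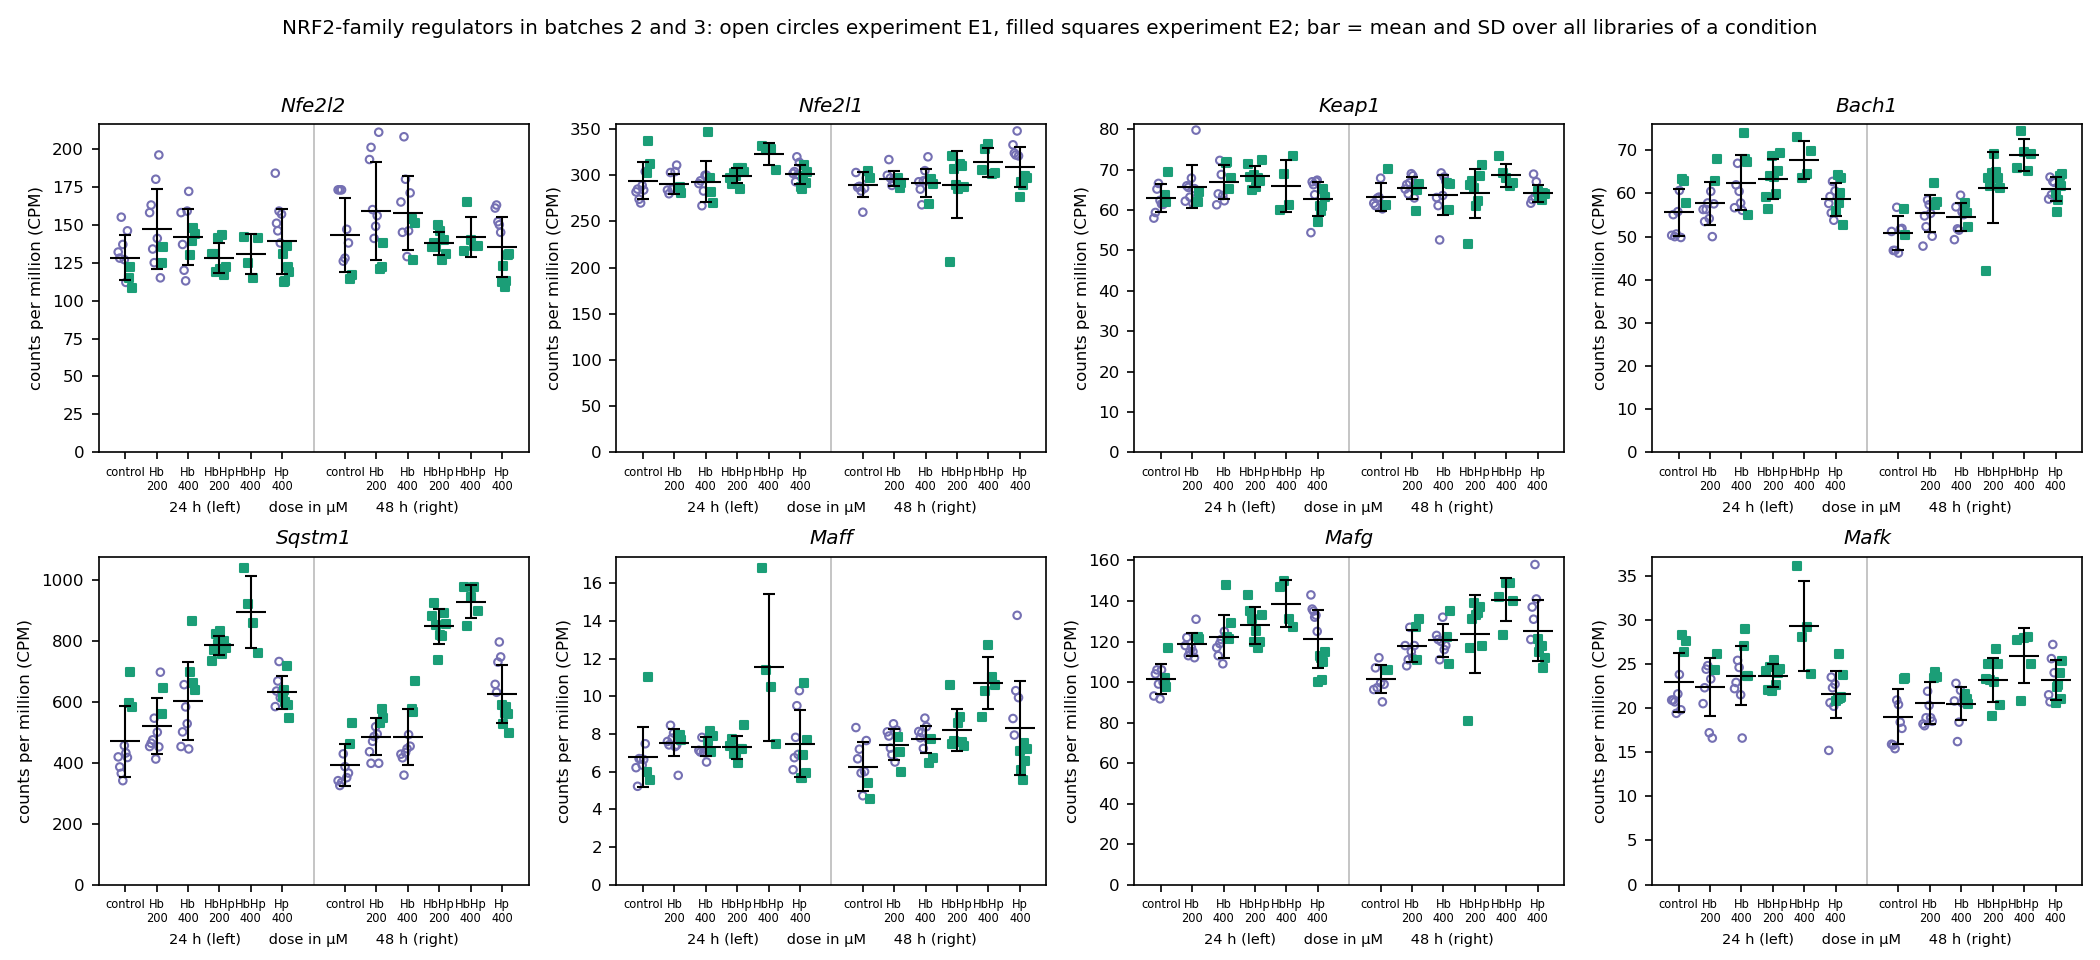
Levels of the 8 regulators in batches 2 and 3, in CPM on linear axes from 0, at 24 h on the left and 48 h on the right of each panel. Points are libraries, open for experiment E1 and filled for E2, and bars give mean and SD. All HbHp libraries are E2, and their Sqstm1 levels of 735 to 1040 CPM lie above every control.

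At matched concentration HbHp exceeded Hb for some regulators. At 200 μM and 24 h, 0 of 8 passed (2 unadjusted, 0 by DESeq2, all genes 0.607%). All 8 HbHp libraries, which are E2, had more Sqstm1 than every Hb library, of which 8 belong to E1 and 2 to E2. The fitted difference was 0.37 (SE 0.11, adjusted p = 0.0866). At 200 μM and 48 h, 1 passed (all genes 4.98%): Sqstm1, by 0.60 (SE 0.11, adjusted p = 0.000477). It stayed called within E2 alone, which holds 3 of these Hb libraries, at 0.62 (adjusted p = 0.000344). At 400 μM and 24 h, 1 passed (all genes 2.21%): Maff, by 0.80 (SE 0.16, adjusted p = 0.00186). This call was lost without replicate 1 of HbHp 400 μM at 24 h, the library with 16.8 CPM. It was also lost within E2 alone (0.75, adjusted p = 0.0548) and within batch 3 alone (0.83, adjusted p = 0.0592).

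At 400 μM and 48 h, 3 genes were higher under HbHp than under Hb (all genes 4.28%). In each the 5 HbHp libraries, all E2, lay above all 10 Hb libraries, of which 7 belong to E1 and 3 to E2. This separation of raw levels thus mixes experiment with exposure. For this and other comparisons, the share of all genes without overlap is not given here. Bach1 differed by 0.34 (SE 0.068, adjusted p = 0.000823), Sqstm1 by 0.75 (SE 0.12, adjusted p = 1.74e-05) and Maff by 0.64 (SE 0.15, adjusted p = 0.00611). Within E2 alone they gave 0.41, 0.60 and 0.75, all called. Within batch 3 alone Sqstm1 stayed called at 0.72 (adjusted p = 0.0273), and Bach1 at 0.35 (adjusted p = 0.104) and Maff at 0.75 (adjusted p = 0.131) did not. For Nfe2l2 the 95% interval was −0.22 to 0.18 and for Keap1 −0.05 to 0.17. Between 200 and 400 μM HbHp, 1 passed at 24 h (all genes 0.176%), Maff by 0.66 (SE 0.15, adjusted p = 0.0269), and 0 at 48 h (4 unadjusted, 0 by DESeq2, all genes 0.127%). The Maff call was lost when replicate 1 or replicate 2 of HbHp 400 μM was left out, and with the replicate block. It was also lost within E2 alone (0.66, adjusted p = 0.0541) and within batch 3 alone (0.67, adjusted p = 0.0765).

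NRF2 targets were higher than control for 25 of 30 under HbHp 200 μM and 27 under 400 μM at 24 h, and for 27 and 27 at 48 h, with medians of 0.59, 0.76, 0.70 and 0.81. Of the 6 BACH1-repressed genes, 5, 5, 6 and 6 were higher. Against Hb at matched concentration, 2 and 9 targets were higher at 24 h for 200 and 400 μM, and 16 and 14 at 48 h. Gclm reached 273 ± 17.5 CPM (SD, n = 5) under HbHp 400 μM at 48 h, against 188 ± 28.4 CPM (n = 10) under Hb 400 μM and 113 ± 17.7 CPM (n = 9) in control. For HbHp 400 μM at 48 h, 1 of 8 microglial markers (median −0.38) and 2 of 8 astrocyte markers (median −0.35) were lower. The share of all genes called there was 11.9%. The microglial sums were 1450 to 3780 CPM there against 601 to 4350 CPM in control, and the part of these shifts was not tested.

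Hp alone, given without Hb, was also followed by higher levels of several regulators at 48 h. At 24 h, 0 of 8 passed (3 unadjusted, 1 by DESeq2, all genes 0.704%). At 48 h, 5 were higher (all genes 10.8%): Bach1 by 0.30 (SE 0.057, adjusted p = 0.0003), Sqstm1 by 0.58 (SE 0.10, adjusted p = 8.69e-05), Maff by 0.50 (adjusted p = 0.00715), Mafg by 0.26 (adjusted p = 0.0095) and Mafk by 0.28 (adjusted p = 0.021). Sqstm1 spanned 498 to 796 CPM with a median of 589, and 9 of 11 libraries lay above every control. Of 30 NRF2 targets 20 were higher, and of the 6 BACH1-repressed genes 6. Of 8 microglial markers 0 passed by edgeR (0 unadjusted, 0 by DESeq2), and of 8 astrocyte markers 1 was lower.

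This result differed between the experiments. Within E1 alone Hp changed Sqstm1 by 0.67 (adjusted p = 0.000468) at 24 h and 0.96 (adjusted p = 4.78e-07) at 48 h, and within E2 alone by −0.02 (adjusted p = 0.981) and 0.15 (adjusted p = 0.744). A fit with a separate response in each experiment, chosen after the data were seen, tested the difference itself. The Sqstm1 response was lower in E2 than in E1, by −0.69 (SE 0.13, adjusted p = 0.00817) at 24 h and −0.82 (SE 0.14, adjusted p = 0.000675) at 48 h, and Mafk by −0.50 (SE 0.15, adjusted p = 0.0481) at 48 h. These were 1 and 2 of 8 genes, against 0.124% and 3.61% of all genes.

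The levels show where the experiments diverged. At 48 h the 5 Hp libraries of E1 had 657, 631, 730, 796 and 747 CPM of Sqstm1, above the 7 E1 controls at 325 to 429 CPM. The 6 Hp libraries of E2 ran from 498 to 589 CPM, overlapping the 2 E2 controls at 462 and 530 CPM. At 24 h the 3 E2 controls had 597, 698 and 584 CPM and the 7 E1 controls 341 to 456 CPM, while Hp libraries averaged 644 ± 51.3 CPM in E1 and 618 ± 57.3 CPM in E2 (SD, n = 6 each). At 24 h the controls of the 2 experiments did not overlap, whereas the Hp libraries did. Hp libraries were all batch 3, in which 2 control libraries remain at each time. Within batch 3 alone the Sqstm1 change was 0.33 (adjusted p = 0.372) and 0.48 (adjusted p = 0.567).

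**Figure D3:**
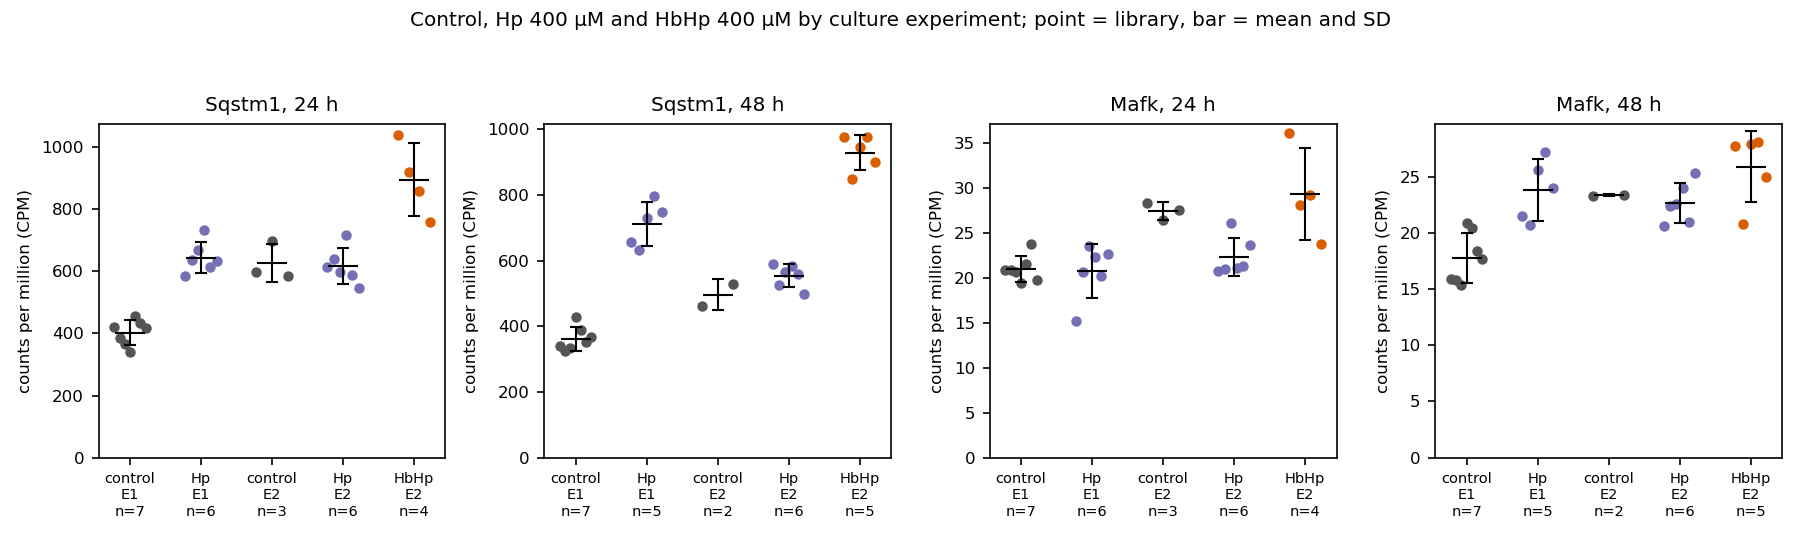
Sqstm1 and Mafk levels, in CPM on linear axes from 0, in control, Hp 400 μM and HbHp 400 μM libraries split by experiment. Points are libraries and bars give mean and SD. In E1 the Hp libraries lie above the controls for Sqstm1 at both times, and in E2 they overlap them, while the HbHp libraries of E2 lie above both.

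HbHp 400 μM against Hp 400 μM compares the complex with the same nominal concentration of scavenger. At 24 h, 1 of 8 genes was higher (all genes 0.619%), Maff by 0.69 (SE 0.14, adjusted p = 0.00277). At 48 h, 1 was higher (all genes 1.44%), Sqstm1 by 0.45 (SE 0.11, adjusted p = 0.0128). In both cases 1 library decided the call, replicate 1 of HbHp 400 μM at 24 h and replicate 4 at 48 h, without which 0 passed. All HbHp libraries had more Sqstm1 than all Hp libraries at both times. Within E2 alone, where the groups share an experiment and a batch, 4 genes passed at 24 h and 3 at 48 h. The shares of all genes above belong to the fit of all libraries, and those within E2 are not given here. There Sqstm1 differed by 0.54 (adjusted p = 1.37e-05) and 0.74 (adjusted p = 1.22e-09) and Maff by 0.70 (adjusted p = 0.0122) and 0.68 (adjusted p = 0.00496). Mafk (0.39, adjusted p = 0.00911) and Mafg (0.36, adjusted p = 0.025) also passed at 24 h. At 48 h Nfe2l2 also passed, by 0.24 (adjusted p = 0.0364). NRF2 targets were higher under HbHp than under Hp for 13 and 16 of 30.

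**Figure D4:**
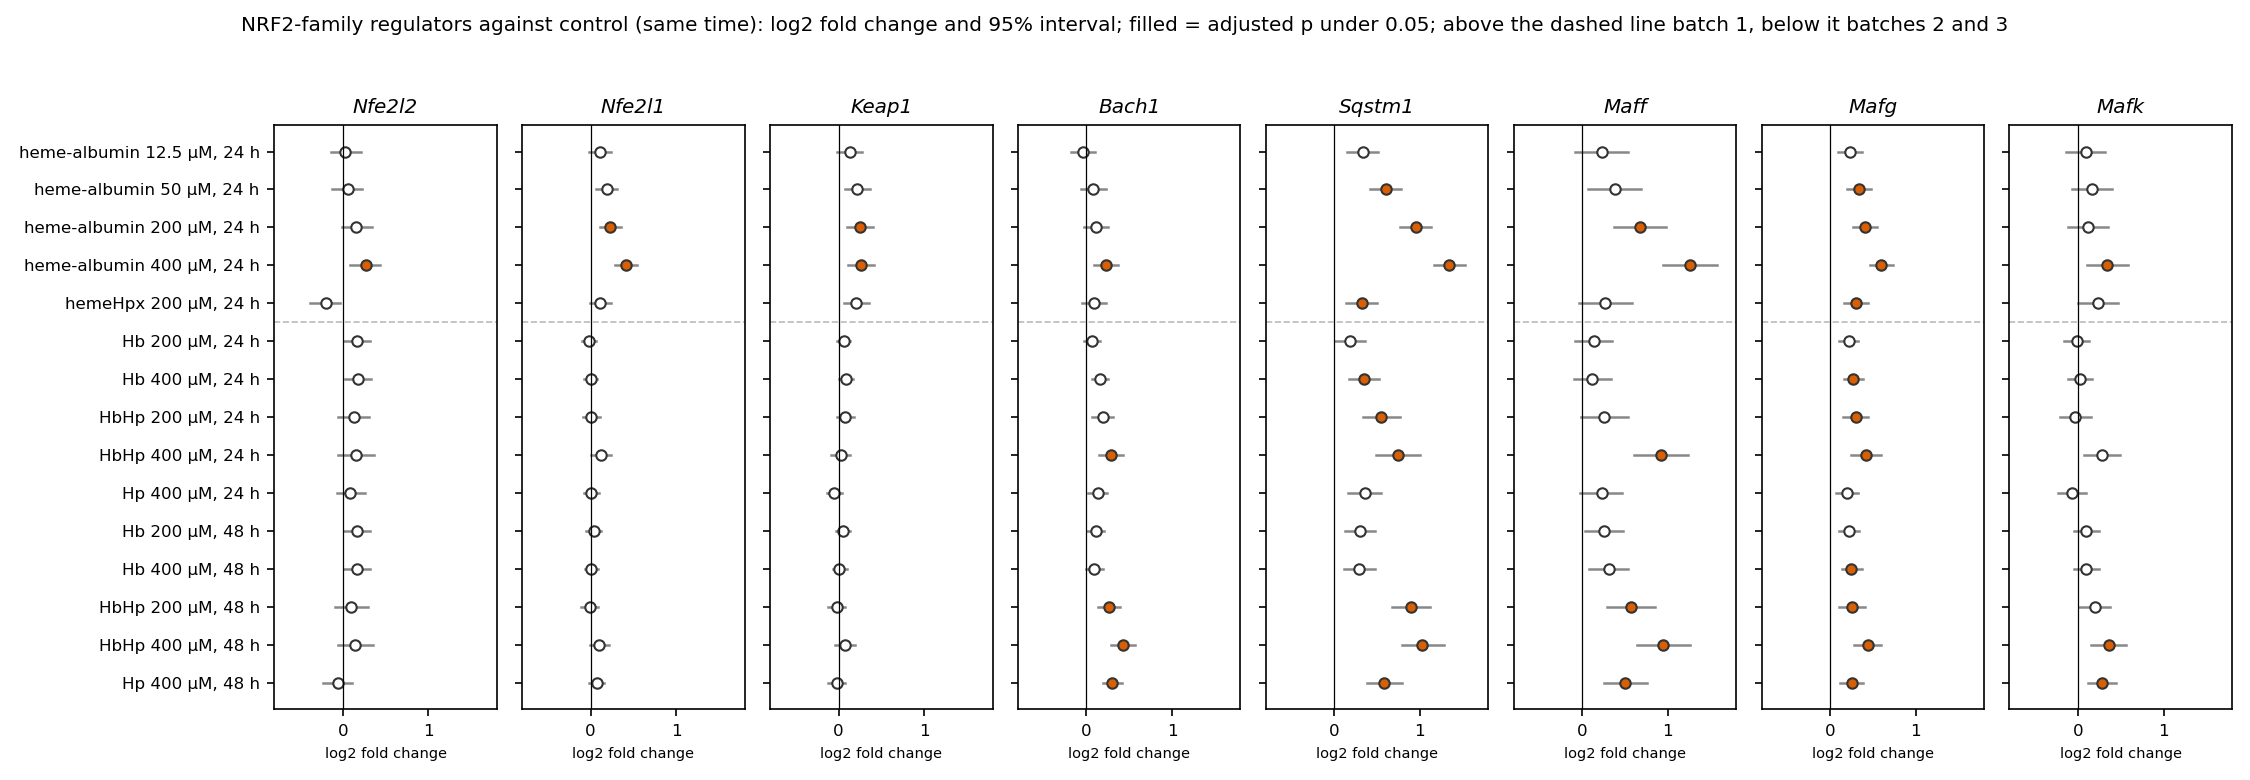
Log2 fold changes against the control of the same time for the 8 regulators and 15 exposures, with 95% intervals and filled points where the adjusted p was under 0.05. Filled points fall mostly in the Sqstm1, Maff and Mafg panels. Nfe2l2, Nfe2l1 and Keap1 have none below the dashed line that separates batch 1 from batches 2 and 3.

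Culture time changed 1 of the 8 in untreated slices (all genes 4.5%). Mafk was lower at 48 h than at 24 h by −0.25 (SE 0.076, adjusted p = 0.0365), with medians of 18.4 and 21.3 CPM and 5 of 9 libraries below every 24 h library. The call was lost within either experiment alone and without any one of 3 control libraries, the 24 h replicates 7, 8 and 11. For the responses, the test of 48 h against 24 h called 0 of 8 genes in each of 5 exposures by edgeR and by DESeq2. The shares of all genes were 0.0% for Hb 200 μM, 0.0% for Hb 400 μM, 0.0121% for HbHp 200 μM, 0.0304% for HbHp 400 μM and 0.0% for Hp 400 μM, and the unadjusted counts were 0, 0, 2, 0 and 2. For Sqstm1 under HbHp 200 μM the response at 48 h minus that at 24 h was 0.35, with a 95% interval of 0.08 to 0.61 (adjusted p = 0.374).

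The experiments themselves differed widely, with 68.0% of all genes called between E2 and E1 and 5 of the 8 regulators. Sqstm1 (0.22), Mafk (0.19) and Bach1 (0.10) were higher in E2 and Nfe2l2 (−0.28) and Maff (−0.14) lower.

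Genes that act on the regulators' proteins were described by list. For heme-albumin 400 μM, where 29% of all genes were called, of 11 tested ubiquitin ligase subunits and kinases of NRF2 turnover 2 were higher and 1 lower, of 7 KEAP1-binding competitors 2 were higher and 1 lower, and of 7 NRF2 coactivators and corepressors 0 passed by edgeR (0 unadjusted, 0 by DESeq2). Of 7 genes of NRF1 processing 1 was higher, Vcp, the segregase that extracts NRF1 from the endoplasmic reticulum, by 0.30 (SE 0.046, adjusted p = 8.78e-07). Of 4 genes of BACH1 turnover 0 passed by edgeR (0 unadjusted, 0 by DESeq2).

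For HbHp 400 μM at 48 h, where 11.9% of all genes were called, the same lists gave 1 of 11 higher for turnover, Cul3, the scaffold of the KEAP1 ligase, by 0.21 (SE 0.049, adjusted p = 0.00139), and 0 for the other 4 lists by edgeR. Over those lists, in the order given above, 1, 1, 0 and 1 genes had an unadjusted p under 0.05 and DESeq2 called 0. Among 13 selective autophagy receptors and LC3-family genes, which stand beside Sqstm1 in function, 3 were higher: Gabarapl1 by 0.48 (adjusted p = 0.000377), Tax1bp1 by 0.29 (adjusted p = 7.68e-05) and Tbk1, the kinase that phosphorylates autophagy receptors, by 0.36 (adjusted p = 4.01e-06). In heme-albumin 400 μM, against 29% of all genes, 1 of 12 tested was higher, Gabarapl1 by 0.60 (adjusted p = 7.2e-06), and 1 lower, Map1lc3b by −0.23 (adjusted p = 0.00877). Sqstm1 itself rose by 1.34 and 1.03 in these 2 comparisons.

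Genes whose levels tracked each regulator were ranked over 11830 genes by the smaller of 2 Pearson correlations, over the 60 libraries of batch 1 and over the labelled libraries of batches 2 and 3 after removal of batch and experiment. Libraries share treatments and cultures, so these values are descriptions. Sqstm1 was most like Srxn1 (r = 0.97 and 0.93), followed by Cat, which encodes catalase (0.85 and 0.90), and Slc48a1, a heme transporter gene (0.92 and 0.82). Mafg was most like Zdhhc18 (0.94 and 0.80), Abcc1, a glutathione-conjugate exporter gene (0.81 and 0.79), and Slc3a2, which encodes a subunit of the cystine transporter (0.75 and 0.77).

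Maff was most like the glucose transporter gene Slc2a1 (0.75 and 0.76), Dusp5 (0.76 and 0.74) and the cytokine gene Il11 (0.88 and 0.72). Mafk was most like Lmna (0.85 and 0.77), Gadd45b (0.78 and 0.74) and Zfand2a (0.81 and 0.74). Nfe2l2 was most like Wwtr1 (0.86 and 0.77), Nmt2 and Chsy1, and Nfe2l1 most like Foxp4 (0.80 and 0.77), Zfp703 and Tnks1bp1. Bach1 was most like Sertad2 (0.75 and 0.74), Lats2 and Ncoa2, and Keap1 most like Fem1a (0.84 and 0.65), Dhx16 and Cactin. No regulator had another of the 8 among its 3 closest genes.

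Between the regulators, Sqstm1 and Maff correlated at 0.89 in batch 1 and 0.56 in batches 2 and 3, and Sqstm1 and Mafg at 0.85 and 0.56. Nfe2l1 correlated with Mafg at 0.92 in batch 1 but at 0.42 in batches 2 and 3. Nfe2l2 followed Sqstm1 at 0.23 and −0.06 only, and its correlation with Mafk was −0.45 and −0.48.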

How the data were processed

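Bulk mRNA (TruSeq) was sequenced from brain slice cultures. The authors deposited raw counts per Ensembl gene for each library. The submitters' processing notes name featureCounts and the GRCm39 build, and the aligner, annotation and strand setting are not given in the sources used here. Identifiers were matched to symbols, exon lengths and RefSeq promoters of a GRCm38 reference, so gene positions are not printed and coordinates stand only beside promoter sequences. Protein sequences were not used here. The 8 genes, the gene lists and the tests were chosen with earlier results of these data known. Named genes are the 8 regulators, the 3 genes most like each by correlation of log2 CPM (prior count 2, mean of at least 5 CPM), up to 3 genes of each list with the largest fold change past the threshold, and the targets Nqo1, Gclm, Slc7a11, Srxn1, Txnrd1 and Hmox1. Ugdh was outside this rule and was named after its values were seen.

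Batch 1 and batches 2 and 3 were fitted apart with edgeR 4.0.16 (R 4.3.3) on the deposited counts: filterByExpr with a smallest count of 10 and total of 15, TMM scaling, and the quasi-likelihood test with Benjamini-Hochberg adjustment over 15554 or 16473 genes, called at 0.05. The second fit had terms for batch and experiment. Intervals are 95%, as 1.96 standard errors on either side. The fit was tested on simulated data. DESeq2 1.42.0, RLE scaling, other filters, subsets of libraries, GC and length correction, blocks and left-out libraries served as alternatives. No pair of libraries differed by as little as sampling noise, with a lowest chi-square per degree of freedom of 3.48 over 630 pairs. Total counts per library had medians of 22054776, 46896476 and 28435992 in batches 1, 2 and 3. The 21 libraries with conflicting labels entered no comparison. One list of related transcription factors is not reported here.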

Additional observations from a re-analysis of the deposited data

Results flagged for a closer look

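Single libraries stood apart from their group in 12 of 128 pairs of gene and condition tested by Dixon's criterion, which chance alone meets in about 1 of 20. The criterion was applied to log2 CPM (prior count 2), and levels are printed in CPM. The Hp groups, with 12 libraries at 24 h and 11 at 48 h, were not screened. Replicate 1 of HbHp 200 μM at 48 h held 3 of these, with 206 CPM of Nfe2l1 against 285 to 321 CPM in the other libraries, 42 CPM of Bach1 against 61.2 to 69.1 CPM and 80.7 CPM of Mafg against 117 to 139 CPM. Its Sqstm1 level of 880 CPM lay inside the range of its group. Replicate 10 of Hb 200 μM at 24 h held 3 more, with 79.8 CPM of Keap1 (others 61.6 to 67.9), 5.8 CPM of Maff (7.33 to 8.46) and 131 CPM of Mafg (112 to 122). The other 6 came from 6 libraries. Nfe2l1 had 317 CPM in replicate 2 of Hb 200 μM at 48 h (others 286 to 300), 347 CPM in replicate 6 of Hb 400 μM at 24 h (267 to 300) and 260 CPM in replicate 5 of the 48 h control (283 to 305). Nfe2l2 had 165 CPM in replicate 2 of HbHp 400 μM at 48 h (133 to 140), Keap1 52.6 CPM in replicate 3 of Hb 400 μM at 48 h (60.1 to 69.2) and Maff 11 CPM in replicate 8 of the 24 h control (5.22 to 7.48).

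The response to Hp 400 μM differed between the experiments, E2 minus E1, by −0.69 for Sqstm1 at 24 h, −0.82 for Sqstm1 at 48 h and −0.50 for Mafk at 48 h on the log2 scale.

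A further 20 libraries at 400 μM carry a treatment label that names Hb with Hpx and a title that names Hb with haptoglobin, so they entered no comparison. Their values are given beside the controls on one scale, without a test. At 24 h, 10 such libraries had a median of 187 CPM of Nfe2l2 (122 to 224, controls at most 156), 356 CPM of Nfe2l1 (341 to 376, controls 276 to 337), 63.8 CPM of Bach1 (58 to 78, controls 49.8 to 63.6), 11.6 CPM of Maff (9.34 to 15.2, controls 5.28 to 11) and 125 CPM of Mafg (114 to 137, controls 92.5 to 115). All 10 lay above every control for Nfe2l1 and 9 for Mafg. For Sqstm1 (539 to 660 CPM, controls 351 to 697) and Mafk (20.2 to 27.7 CPM, controls 19.8 to 28.4) 0 of 10 did, and for Keap1 1 of 10. At 48 h the other 10 had a median of 177 CPM of Nfe2l2 (136 to 279, controls 116 to 175), 357 CPM of Nfe2l1 (333 to 418, controls 267 to 311), 68.7 CPM of Bach1 (58.6 to 76.1, controls 46.7 to 57.5) and 724 CPM of Sqstm1 (641 to 879, controls 324 to 537). The small MAF genes had medians there of 10.9 CPM for Maff (8.93 to 18.2, controls 4.58 to 8.28), 128 CPM for Mafg (109 to 139, controls 91.3 to 113) and 30.2 CPM for Mafk (21.9 to 37.1, controls 15.7 to 23.8). All 10 lay above every control for Nfe2l1, Bach1, Sqstm1 and Maff, and 0 of 10 for Keap1.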

How the results depend on the processing

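Of 60 calls among 288 pairs of gene and comparison, 31 held under every alternative run for them, and 32 uncalled values passed under at least 1. Over 3576 single values, 1 that was called in the reported fit or the alternative changed sign: Mafk under Hp 400 μM at 48 h, −0.03 within E2 alone. Changes of sign among values called in neither were not counted. Of 447 counts of the 8 genes called, 371 stayed within 1.5 times and 76 moved. The causes were not tested, but subsets hold fewer libraries. Precision is limited by small groups, among them the 4 and 5 libraries of HbHp 400 μM, the 5 controls of E2 and the 4 controls of batch 3.

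The moved counts were as follows. With DESeq2, Hp 400 μM at 24 h gave 1. With RLE scaling, Hb 400 μM at 24 h gave 1. After GC and length correction, Hb 200 μM gave 1 at 24 h and 1 at 48 h, Hp 400 μM at 24 h 1, HbHp against Hp at 24 h 2, heme-albumin 400 against 200 μM 4, hemeHpx 1 against control and 6 against heme-albumin. With no filter on low counts, Hb 400 μM at 24 h gave 1, heme-albumin 200 against 50 μM 0 and hemeHpx against control 1. The filter of at least 10 counts in every library, and the fit of control and 200 μM libraries of batch 1 alone, moved no count.

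Within batch 3 alone, Hb 400 μM gave 0 at 24 h and 0 at 48 h, HbHp 200 μM 1 and 1, HbHp 400 μM at 24 h 2, HbHp 400 μM 1 against Hb at 48 h, 3 and 2 against Hp at the 2 times and 0 against 200 μM at 24 h, Hp 400 μM at 48 h 0 and control time 0. Within E1 alone, Hb 200 μM at 24 h gave 1, Hb 400 μM at 24 h 1, Hp 400 μM at 24 h 2 and control time 0. Within E2 alone, Hb 400 μM gave 0 and 0, HbHp 200 μM 0 and 2, HbHp 400 μM 2 and 3, HbHp 400 μM at 24 h 0 against Hb and 0 against 200 μM, 4 and 3 against Hp at the 2 times, Hp 400 μM at 48 h 0 and control time 0.

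With no batch or experiment term, Hb 400 μM at 24 h gave 1, HbHp against Hb 1 for 200 μM at 24 h and 2 and 5 for 400 μM at the 2 times, HbHp against Hp at 24 h 3, Hp 400 μM at 24 h 2 and control time 0. With no experiment term, Hb 400 μM at 24 h gave 1, HbHp against Hb 1 and 2 for 200 μM and 2 for 400 μM at 24 h, HbHp against Hp at 24 h 3 and control time 0. With control, Hb and HbHp 200 μM libraries only, Hb 200 μM at 48 h gave 1 and HbHp 200 μM 1 and 2.

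Library names share codes across groups, and libraries with one code deviated together in part. Their median correlation was 0.31 over 169 pairs in batch 1 and 0.18 over 291 pairs in batches 2 and 3. Pairs with different codes had a median of −0.02 in each set. Of the pairs with one code, 61.5% and 59.8% lay above 0.1, and the lowest values were −0.67 and −0.72. The reported fits have no term for the code, and whether libraries of one code are paired was not established. With this code as a replicate block, Hb 400 μM gave 0 and 0, HbHp 200 μM at 24 h 1, HbHp 400 against 200 μM at 24 h 0, control time 0, heme-albumin 12.5 μM 1 and hemeHpx against control 4.

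Leaving out single libraries of HbHp 400 μM, E2 controls or replicate 1 of HbHp 200 μM at 48 h gave 0 to 2 for HbHp 400 against Hb 400 μM at 24 h, 0 to 3 against Hp at 24 h, 0 to 1 against Hp at 48 h, 0 to 2 for HbHp 400 against 200 μM at 24 h, 1 to 2 for HbHp against Hb 200 μM at 48 h, 0 to 1 for Hp 400 μM at 24 h and 0 to 1 for control time.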
